A study of Mus musculus with 20 samples.

Results

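Gene expression in the sensory-motor cortex was compared between MIR and control offspring that had both received rapamycin, using 10 of the 20 libraries of the series, 5 in each group, taken by their labelled group alone. MIR offspring came from dams given a single low dose of lipopolysaccharide, 0.008 mg/kg, on gestation day 9 to bring on a maternal inflammatory response (MIR). Control offspring came from dams given saline. Both groups are CD-1 mice, an outbred strain, and both received rapamycin at 5 mg/kg by the study's methods, 2 hours before the tissue was frozen. The sample labels call the tissue brain, and the cortex is named in the methods. Per the labels, 12 MIR and 12 control mice received rapamycin or vehicle, and 5 libraries a group were used here. A supplement of the study lists the litters used for sequencing with and without rapamycin among those tested as young adults, with separate litters for MIR and control offspring, and does not tie a library to a litter. The p-values therefore measure only the spread between these libraries, and littermates would make them too small.

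Rapamycin binds FKBP12 and blocks mTOR complex 1, the kinase complex that ties ribosome production, translation and lipid synthesis to growth signals. Lipopolysaccharide is a bacterial cell wall component sensed by Toll-like receptor 4, and its injection into a pregnant dam raises cytokines that reach the fetal brain. In adult cortex very few cells divide, so the transcripts of mitosis are scarce there and come from glial precursors and other scattered cycling cells. Type I interferon induces genes that restrict viruses and genes that load peptides onto MHC class I molecules.

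Called genes in MIR offspring under rapamycin included genes of cell division and the interferon regulator Irf7. Promoters of 6 genes of cell division or the interferon response are shown, because the results turn on these groups and each holds a known element that can be read in the sequence. The 4 genes of dividing cells were called, and the interferon-induced Isg15 and Ifit1 were not. The first 4 show the 150 bases before the transcription start of genes of dividing cells, Top2a at chr11:99024190-99024339, Mki67 at chr7:135716380-135716529, Ube2c at chr2:164769779-164769928 and Iqgap3 at chr3:88081901-88082050 of RefSeq on GRCm38.p6, each written 5′ to 3′ on the strand of its gene. Capitals mark TTTGAA, read on either strand, the core of the cell cycle genes homology region (CHR) through which the MuvB complexes bind late cell cycle genes.
Top2a: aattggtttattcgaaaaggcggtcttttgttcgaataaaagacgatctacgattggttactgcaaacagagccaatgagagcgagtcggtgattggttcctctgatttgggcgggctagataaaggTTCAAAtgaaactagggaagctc
Mki67: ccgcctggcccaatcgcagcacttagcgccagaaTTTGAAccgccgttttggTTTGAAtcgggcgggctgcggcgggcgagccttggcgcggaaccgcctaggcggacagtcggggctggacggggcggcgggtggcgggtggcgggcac
Ube2c: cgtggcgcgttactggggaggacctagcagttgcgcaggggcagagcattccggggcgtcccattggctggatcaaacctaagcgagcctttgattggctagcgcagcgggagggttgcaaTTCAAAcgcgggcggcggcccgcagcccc
Iqgap3: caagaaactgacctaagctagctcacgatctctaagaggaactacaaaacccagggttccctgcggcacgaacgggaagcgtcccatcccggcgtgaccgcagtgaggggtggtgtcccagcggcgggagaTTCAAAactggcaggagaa
The next show the 110 bases before the start of 2 interferon-induced genes, Isg15 at chr4:156200819-156200928 and Ifit1 at chr19:34640779-34640888, and capitals mark a pair of GAAA copies with any 2 bases between them, on either strand, the half-sites of the interferon-stimulated response element (ISRE), with overlapping matches run together.
Isg15: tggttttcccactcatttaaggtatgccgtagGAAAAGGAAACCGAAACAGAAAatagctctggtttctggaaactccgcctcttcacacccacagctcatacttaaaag
Ifit1: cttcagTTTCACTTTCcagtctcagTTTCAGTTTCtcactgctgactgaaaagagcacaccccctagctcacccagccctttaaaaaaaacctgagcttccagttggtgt
In windows of 250 bases before to 50 after the start, TTTGAA stood in 23 of the 30 mitosis genes with a RefSeq promoter here (76.7%), in 4 of 31 genes of DNA replication (12.9%) and in 17.9% of all 32851 promoters. CCAAT stood in 24 of the 30 mitosis genes (80%) and in 37.4% of all promoters. It also stood in 20 of 31 genes of DNA replication (64.5%) and 8 of 10 of MHC class I (80%). Among interferon-stimulated genes it stood in 3 of 13 (23.1%). The GAAA pair stood in 9 of 13 interferon-stimulated genes (69.2%), in 2 of 10 genes of MHC class I (20%) and in 3.44% of all promoters. Neither Irf7 nor Nusap1, which appear below, held its group's letters in this window. A match of these letters is a description of the promoter and was not tied to the expression values by any test.

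Depth ranged over 18.1 to 24.5 M counts a library, M being the mega of CPM, with means of 21.6 ± 1.79 M in MIR and 22.0 ± 2.39 M in control offspring (SD, n = 5 each). The table lists 48795 genes, of which 29559 had any count in these libraries and 16469 passed the filter on low counts and were tested. Markers of cortical layers were present in both groups, the upper-layer list summing to 1092 to 1303 CPM in the MIR libraries and 995 to 1455 CPM in the control libraries. The deep-layer list summed to 460 to 552 CPM in the MIR libraries and 486 to 603 CPM in the control libraries. Of its 13 genes none was called, but 3 (23.1%) had an unadjusted p under 0.05, all on the lower side. That share was 5.91% over all genes tested, and no upper-layer gene had such a p. Libraries stood apart in 2 ways. Control rapamycin 1 scored 65.8 on the first principal component, against −16.3 to 2.87 in the other 9 libraries, its deviations from the mean library followed the GC content of the genes (rank correlation across genes 0.68, against −0.33 to −0.04), and 2.10% of its counts were mitochondrially encoded, against 3.86% to 5.60%. The log2 fold changes between the groups carried this pattern, with a rank correlation to GC content of −0.34. Without control rapamycin 1 that correlation was −0.03. Control rapamycin 4 held more striatal RNA: the striatum list stood 1.54 log2 units over the median library there and between −0.16 and 0.16 elsewhere. The deep-layer list was also highest in that library, at 0.35, against −0.04 to 0.12 in the other control libraries. The part of that library in the lower deep-layer values was not tested. Xist, expressed from the inactive X chromosome of females, stood at 483 to 1125 counts per M in all 10 libraries and the 4 Y-linked genes had 1 count in total, although the methods state equal numbers of both sexes.

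Under rapamycin, 13 genes were higher in MIR offspring and none was lower, of 16469 tested. The 12 named here fall into transcripts of dividing cells (Top2a, Mki67, Ube2c, Iqgap3), an interferon regulator (Irf7), genes of microglia and other myeloid cells or of lysosomes (Ctsh, Igsf6, Man2b1), and 4 others (Col6a6, Csmd3, Snhg11, Tmem181c-ps). A gene was called by edgeR's quasi-likelihood test when its log2 fold change exceeded 0.5 in size and its Benjamini-Hochberg adjusted p was under 0.05. Called genes were 0.0789% of those tested on the higher side and 0% on the lower side. At an unadjusted p under 0.05, 1268 genes were on the higher side (7.7%) and 973 on the lower side (5.91%), and DESeq2 called 208 higher and 29 lower. The median log2 fold change over all genes tested was 0.01. In 411 genes (2.5%) all 5 MIR libraries stood above all 5 control libraries, and in 275 genes (1.67%) all stood below. These shares of all genes tested are to be set beside the counts of each list below. The 13 genes share an adjusted p of 0.0418, close to the threshold, and each has all MIR libraries above all control libraries. They were called on these same libraries, so that separation adds no support. The calls depended on single libraries: no gene was called when MIR rapamycin 1, 3 or 5 or control rapamycin 2, 3 or 4 was left out, Irf7 alone without MIR rapamycin 2 and Ncapg alone without control rapamycin 5. Without MIR rapamycin 4, 77 genes were called, all higher, and without control rapamycin 1, 141 were called higher (0.846%) and 11 lower (0.066%), among them all 13.

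**Figure D1:**
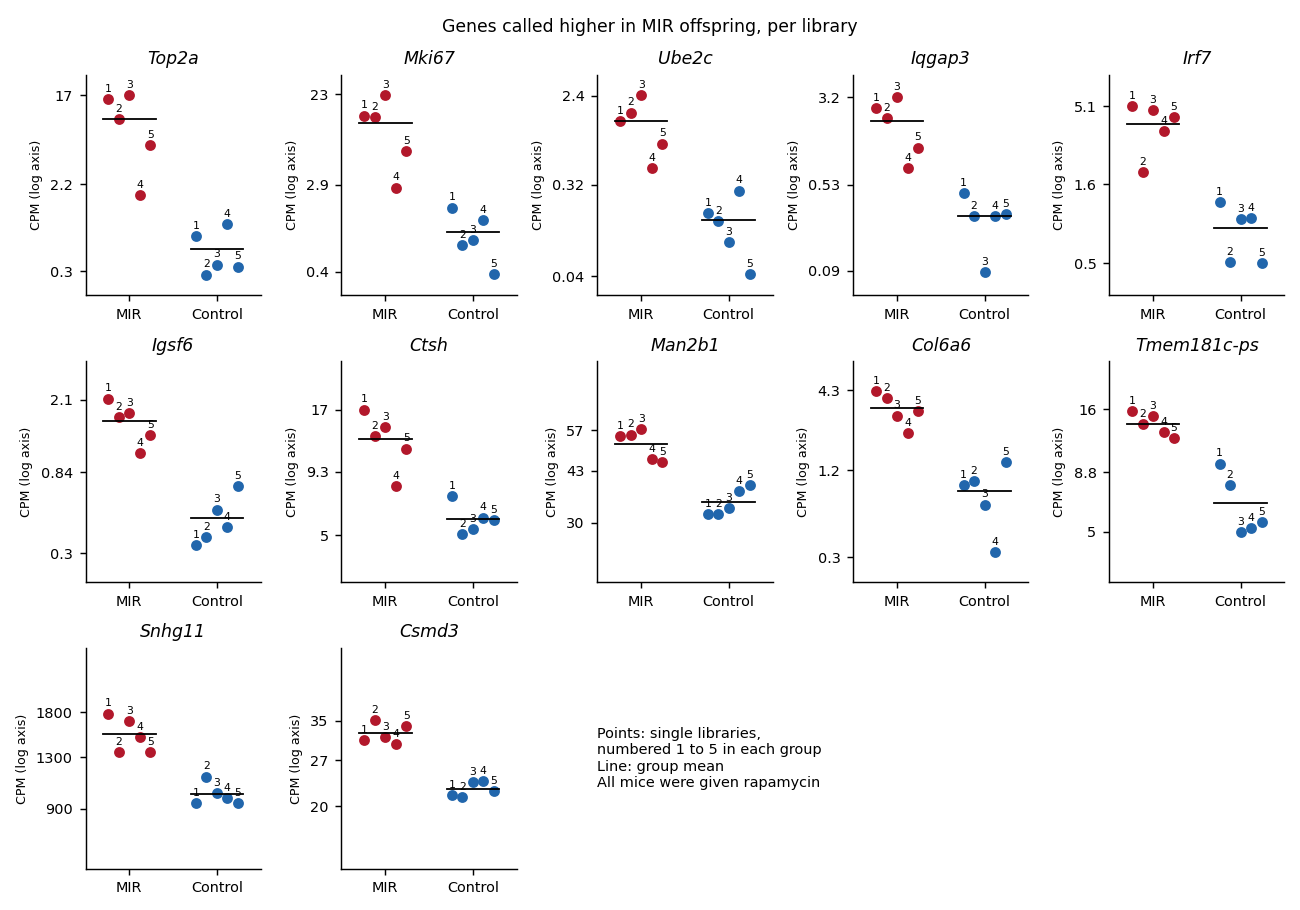
CPM of 12 of the 13 genes called higher in MIR offspring under rapamycin, on log axes, with 1 point per library, MIR on the left and control on the right. In every panel the 5 MIR points stand above the 5 control points, with Top2a at 1.71 to 17.0 CPM in MIR and 0.277 to 0.883 CPM in control libraries.

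Transcripts of dividing cells showed the largest differences, up to about 19.8-fold. Top2a, the topoisomerase that untangles chromosomes before they part, Mki67, which coats mitotic chromosomes and marks cycling cells, Ube2c, a ubiquitin-conjugating enzyme of the exit from mitosis, and Iqgap3, a scaffold of proliferating cells, were all higher in MIR offspring. Values here and below are CPM, counts per M of the scaled library, listed for replicates 1 to 5 of each group. Top2a (chr11:98992943-99024189, minus strand, GRCm38) had 15.5, 9.85, 17.0, 1.71 and 5.40 CPM in the MIR libraries, against 0.669, 0.277, 0.348, 0.883 and 0.332 CPM in the control libraries. MIR rapamycin 1, 2 and 3 were the highest and MIR rapamycin 4 the lowest of the MIR libraries, and the groups did not overlap. The log2 fold change was 4.31 ± 0.58 (SE).

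Mki67 (chr7:135689784-135716361, minus strand) repeated that order, with 14.2, 13.7, 22.7, 2.73 and 6.29 CPM in the MIR libraries, against 1.73, 0.738, 0.827, 1.30 and 0.374 CPM in the control libraries. Its log2 fold change was 3.61 ± 0.53, and again MIR rapamycin 4 was nearest to the control libraries. Iqgap3 (chr3:88081971-88121048, plus strand) had 2.56, 2.10, 3.20, 0.741 and 1.14 CPM in the MIR libraries, against 0.446, 0.277, 0.0871, 0.279 and 0.291 CPM in the control libraries, a log2 fold change of 2.82 ± 0.45. Both genes had their highest value in MIR rapamycin 3. Ube2c (chr2:164769898-164778822, plus strand) had 1.35, 1.64, 2.44, 0.463 and 0.812 CPM in the MIR libraries, against 0.167, 0.138, 0.0871, 0.279 and 0.0415 CPM in the control libraries, and its log2 fold change of 3.21 ± 0.52 rests on 1 to 6 counts in each control library. An exon of Ube2c overlaps Tnnc2 on the opposite strand, a gene that was too scarce to test, and the strand setting of the counting step is not stated.

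Of a list of 41 genes of mitosis, 33 were abundant enough to test, and 3 of them were called (Top2a, Mki67 and Ube2c), all higher. A positive log2 fold change was seen in 32 of the 33, 26 had an unadjusted p under 0.05 on the higher side and none on the lower side, and in 11 all MIR libraries stood above all control libraries. Of all genes tested, 7.7% had such a p on the higher side and 2.5% had all MIR libraries above. The list's median log2 fold change was 1.48, against 0.01 over all genes tested. A scarce gene could pass the low-count filter through the libraries of a single group, as Ube2c did through the MIR libraries. The counts and median of this list, and of the lists below that hold scarce genes, are partly shaped by that filter. Nusap1, a spindle protein, had 3.10, 2.14, 3.97, 0.788 and 1.22 CPM in the MIR libraries, against 0.335, 0.185, 0.610, 0.232 and 0.332 CPM in the control libraries and missed the threshold (log2 fold change 2.69 ± 0.47, adjusted p = 0.0508). The mean log2 CPM of the list, relative to the median of the 10 libraries, was 1.37, 1.37, 1.86, 0.06 and 0.54 in the MIR libraries, against −0.06, −0.40, −0.32, −0.12 and −0.55 in the control libraries. MIR rapamycin 4 was the nearest to the highest control library, control rapamycin 1, and the other MIR libraries stood further above. Without control rapamycin 1 the median was 1.52 and 11 of the list were called, all higher.

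Genes of DNA replication and S phase, which a cell needs before it divides, showed smaller differences. None of the 38 tested was called, 31 had a positive log2 fold change, 9 had an unadjusted p under 0.05, all on the higher side, and the median was 0.30. Uhrf1, which maintains DNA methylation at replication forks, had 0.278 to 2.47 CPM in the MIR libraries and 0.277 to 0.558 CPM in the control libraries (log2 fold change 1.83 ± 0.48, adjusted p = 0.144). Rrm2, the ribonucleotide reductase subunit made in S phase, had 1.25 to 3.15 CPM in the MIR libraries and 0.502 to 1.52 CPM in the control libraries (log2 fold change 1.11 ± 0.33, adjusted p = 0.188). For Mcm10 and Mcm3, components of replication initiation, the log2 fold changes were 1.51 and 0.67, neither called. For markers of neural progenitors and neuroblasts, none of 16 tested was called, 2 had an unadjusted p under 0.05 in each direction, the median was −0.08, and the list summed to 220.2 to 244 CPM in the MIR libraries and 179.6 to 265 CPM in the control libraries. Oligodendrocyte precursor markers, another source of dividing cells in adult cortex, had a median of −0.16 with none of 12 called and 2 with an unadjusted p under 0.05, both on the lower side. In bulk tissue a change in the number of cells of a type and a change in RNA per cell cannot be told apart.

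**Figure D2:**
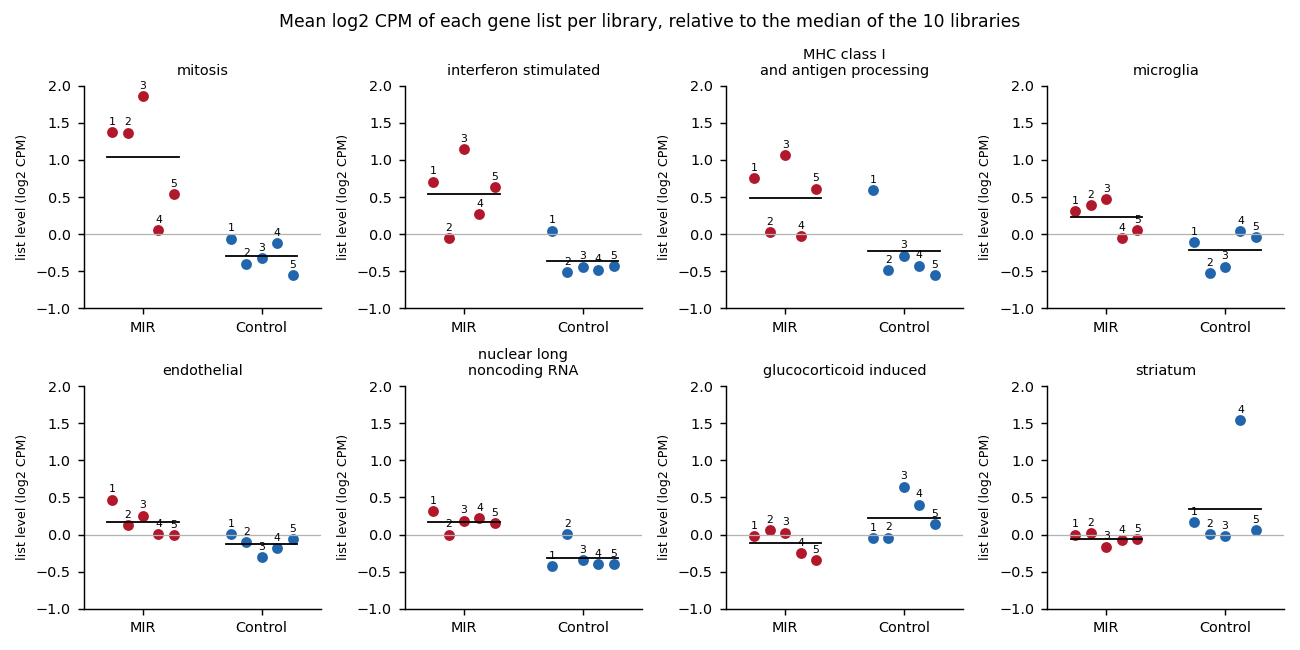
Mean log2 CPM of 8 gene lists in each library, relative to the median of the 10 libraries, with MIR rapamycin on the left and control rapamycin on the right. The mitosis list stands at 0.06 to 1.86 in MIR and −0.55 to −0.06 in control libraries, while the interferon and MHC class I lists overlap through control rapamycin 1.

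Interferon-stimulated genes followed, with Irf7 called. Irf7 (chr7:141262706-141266481, minus strand) encodes the transcription factor that amplifies type I interferon production, and it had 5.08, 1.92, 4.78, 3.52 and 4.34 CPM in the MIR libraries, against 1.23, 0.508, 0.958, 0.976 and 0.498 CPM in the control libraries. MIR rapamycin 2 was the lowest MIR library and still above every control library. The log2 fold change was 2.25 ± 0.31, and this was the gene called without MIR rapamycin 2 (log2 fold change 2.42). Irf7 shares an exonic overlap with Phrf1 on the opposite strand, which had 57.4 ± 3.76 CPM in MIR and 66.4 ± 10.7 CPM in control offspring (log2 fold change −0.21, not called).

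Among the 18 interferon-stimulated genes tested, 17 had a positive log2 fold change, 13 had an unadjusted p under 0.05 on the higher side and none on the lower side, and the median was 0.99. In 3 of the 18, all MIR libraries stood above all control libraries, against 2.5% of all genes tested. An unadjusted p under 0.05 on the higher side was seen in 7.7% of all genes tested. Isg15, the ubiquitin-like modifier whose promoter is shown above, had 1.40, 0.547, 1.62, 0.788 and 1.87 CPM in the MIR libraries, against 0.502, 0.231, 0.218, 0.139 and 0.457 CPM in the control libraries (log2 fold change 2.01 ± 0.42, adjusted p = 0.0875, not called). Ifit1, which binds viral RNA, had 2.66, 1.05, 3.01, 1.90 and 2.07 CPM in the MIR libraries, against 1.23, 0.60, 0.827, 0.929 and 0.623 CPM in the control libraries (log2 fold change 1.35 ± 0.30, adjusted p = 0.102, not called). Its MIR rapamycin 2 value fell within the range of the control libraries, and the same library was the lowest MIR library of the list. Oasl2, an interferon-induced antiviral gene, had 1.53 to 8.89 CPM in the MIR libraries and 0.418 to 2.18 CPM in the control libraries (log2 fold change 1.72 ± 0.49, not called).

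Genes of MHC class I and peptide loading moved in the same direction without a call. Of 12 tested, 10 had a positive log2 fold change, 8 had an unadjusted p under 0.05 on the higher side, and the median was 0.82. Psmb8, an immunoproteasome subunit, had 5.22, 3.88, 7.60, 1.81 and 4.06 CPM in the MIR libraries, against 2.96, 1.61, 1.52, 1.30 and 1.16 CPM in the control libraries. Control rapamycin 1 stood apart from the other control libraries in that gene. Tap1, which carries peptides into the endoplasmic reticulum, had 2.97 to 6.31 CPM in the MIR libraries and 1.29 to 3.18 CPM in the control libraries (log2 fold change 1.19 ± 0.27, adjusted p = 0.105). B2m, the light chain of every class I molecule, had 44.8 to 102 CPM in the MIR libraries and 34.9 to 51.9 CPM in the control libraries (log2 fold change 0.69 ± 0.19, adjusted p = 0.161). H2-Q4 had a log2 fold change of 1.40, but its near-identical relatives make the assignment of its reads uncertain.

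Control rapamycin 1 was the control library nearest to the MIR libraries in both lists. The MHC class I list stood at 0.76, 0.03, 1.06, −0.03 and 0.61 in the MIR libraries, against 0.60, −0.48, −0.29, −0.42 and −0.55 in the control libraries, and the interferon list at 0.71, −0.05, 1.15, 0.27 and 0.64 in the MIR libraries, against 0.05, −0.51, −0.44, −0.48 and −0.43 in the control libraries. Without control rapamycin 1 the medians were 1.34 for MHC class I and 1.21 for interferon-stimulated genes, with 3 and 6 genes called, all higher. The part of that library's GC pattern in these values was not tested.

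Genes of myeloid cells, which include microglia, the resident macrophages of the brain, were among the calls. Igsf6 (chr7:121064067-121074572, minus strand), an immunoglobulin family member of myeloid cells, had 2.13, 1.69, 1.77, 1.07 and 1.34 CPM in the MIR libraries, against 0.335, 0.369, 0.522, 0.418 and 0.706 CPM in the control libraries. Its log2 fold change was 1.73 ± 0.27. The groups did not overlap, with MIR rapamycin 4 the lowest MIR library and control rapamycin 5 the highest control library.

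The lysosomal hydrolases Ctsh and Man2b1 were also higher. Ctsh (chr9:90054152-90076089, plus strand), the aminopeptidase cathepsin H, had 17.1, 13.1, 14.3, 8.11 and 11.6 CPM in the MIR libraries, against 7.31, 5.08, 5.31, 5.95 and 5.81 CPM in the control libraries, with the lowest MIR value in MIR rapamycin 4 (log2 fold change 1.13 ± 0.18). Man2b1 (chr8:85083270-85098282, plus strand), the lysosomal alpha-mannosidase, had 54.8, 55.3, 57.3, 46.5 and 45.7 CPM in the MIR libraries, against 31.9, 31.8, 33.2, 37.4 and 38.9 CPM in the control libraries, a log2 fold change of 0.58 ± 0.09. The wider list of autophagy and lysosome genes did not share this, with 0 of 23 called, a median of −0.05 and 2 with an unadjusted p under 0.05 in each direction.

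None of the 20 microglial markers tested was called, although 18 had a positive log2 fold change and 10 an unadjusted p under 0.05, all on the higher side, with a median of 0.40. The marker sum was 523 to 797 CPM in the MIR libraries and 424 to 555 CPM in the control libraries, so that the groups overlapped. Ctss, the cathepsin S of microglia, had 122, 99.8, 126, 67.2 and 94.0 CPM in the MIR libraries, against 55.3, 57.4, 54.5, 65.5 and 54.7 CPM in the control libraries (log2 fold change 0.82 ± 0.14, adjusted p = 0.0508). It was the 1 marker of 20 whose MIR libraries all stood above all control libraries, against 2.5% of all genes tested. The share of all genes with an unadjusted p under 0.05 on the higher side was 7.7%. Olfml3 had 8.34 to 19.5 CPM in the MIR libraries and 5.21 to 11.1 CPM in the control libraries (log2 fold change 1.10 ± 0.26), and C1qc, a chain of the complement initiator C1q, 21.9 to 42.8 CPM in the MIR libraries and 13.4 to 24.8 CPM in the control libraries (log2 fold change 0.78 ± 0.18); neither was called. For Itgam, the integrin CD11b, the log2 fold change was 0.74. The part of microglial number in the called genes was not tested.

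Markers of macrophages at the brain's borders and of blood leukocytes were scarce, and 11 of 20 passed the filter. Of these none was called, 10 had a positive log2 fold change, the median was 0.49, and the list summed to 22.7 to 56.0 CPM in the MIR libraries and 14.6 to 27.3 CPM in the control libraries. The T cell markers Cd3e and Cd3g reached at most 2 counts in any library. Ptprc, the CD45 of all leukocytes and of microglia, had 8.47, 6.57, 7.74, 4.49 and 5.80 CPM in the MIR libraries, against 2.57, 2.49, 2.48, 4.32 and 3.03 CPM in the control libraries (log2 fold change 1.15 ± 0.20, adjusted p = 0.0584). Lyz2, the lysozyme of myeloid cells, had 6.14, 6.52, 8.22, 5.84 and 6.33 CPM in the MIR libraries, against 4.41, 1.94, 3.09, 2.88 and 3.82 CPM in the control libraries (log2 fold change 1.04 ± 0.19, adjusted p = 0.0686). Both genes separated the groups, Ptprc narrowly (4.49 CPM in MIR rapamycin 4 against 4.32 CPM in control rapamycin 4), with the highest Lyz2 value in MIR rapamycin 3. In 3 of the 11 genes all MIR libraries stood above all control libraries, against 2.5% of all genes tested. An unadjusted p under 0.05 was seen in 4 of the 11, all on the higher side, against 7.7% of all genes tested. For the macrophage markers F13a1 and Cd163 the log2 fold changes were 1.01 and 0.63, and the list's median was −0.06 without MIR rapamycin 3.

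Complement and pattern recognition genes lay on the same side and none was called. Of 13 complement genes tested, 11 had a positive log2 fold change and 6 an unadjusted p under 0.05, with a median of 0.36. C3ar1, the receptor for the C3a fragment, had 2.13 to 4.30 CPM in the MIR libraries and 0.522 to 2.78 CPM in the control libraries (log2 fold change 1.33 ± 0.40). Of 13 inflammatory and NF-kB genes tested, 12 had a positive log2 fold change, 6 an unadjusted p under 0.05 on the higher side and 1 on the lower side (Nfkbia), with a median of 0.21. Tlr4, the receptor for lipopolysaccharide, had 1.76 to 3.39 CPM in the MIR libraries and 1.25 to 1.81 CPM in the control libraries (log2 fold change 0.74 ± 0.22, adjusted p = 0.186), and its co-receptor Cd14 1.34 to 3.35 CPM in the MIR libraries and 0.781 to 1.83 CPM in the control libraries (log2 fold change 0.85 ± 0.28, adjusted p = 0.224). For Tlr2, which senses bacterial lipoproteins, the log2 fold change was 0.98, not called.

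**Figure D3:**
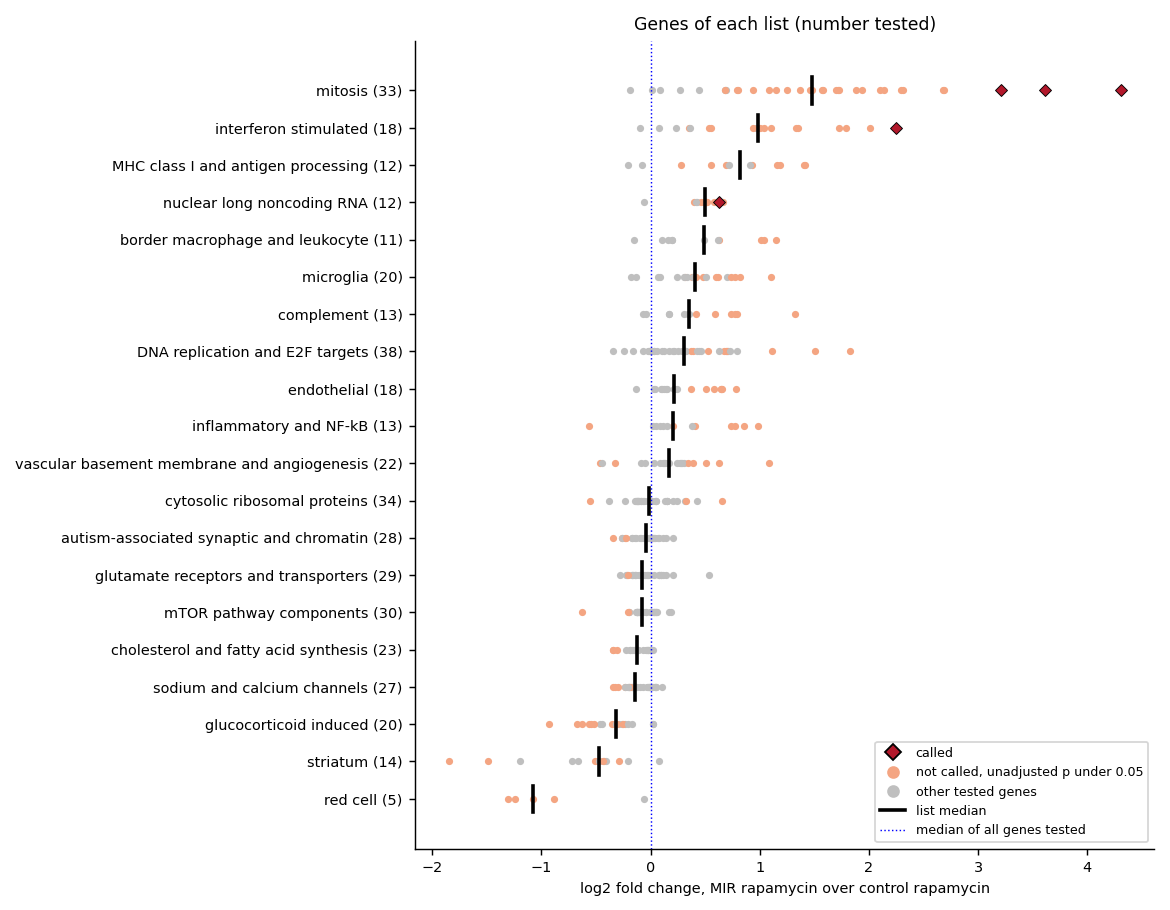
Log2 fold changes of the tested genes of 20 lists, MIR over control offspring under rapamycin, ordered by list median (black bar), with called genes as red diamonds and genes at an unadjusted p under 0.05 in orange. The mitosis median is 1.48 and the red cell median −1.07, while the dotted line marks the median of all genes tested, 0.01.

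The remaining called genes belong to no common list. Col6a6 (chr9:105687809-105828160, minus strand), a chain of collagen VI in the extracellular matrix, had 4.26, 3.79, 2.87, 2.18 and 3.08 CPM in the MIR libraries, against 0.948, 1.02, 0.697, 0.325 and 1.37 CPM in the control libraries, a log2 fold change of 1.88 ± 0.30. It overlaps exons of the opposite-strand gene Gm38314, which was too scarce to test. Csmd3 (chr15:47580637-48792063, minus strand), a large neuronal membrane protein with CUB and sushi domains, had 30.9, 35.2, 31.4, 30.0 and 33.8 CPM in the MIR libraries, against 21.5, 21.2, 23.4, 23.6 and 22.1 CPM in the control libraries. The groups were narrow and lay more than 6 CPM apart, and the log2 fold change was 0.53 ± 0.08. Tmem181c-ps (chr17:6613753-6639790, minus strand), an unprocessed pseudogene, had 15.7, 13.9, 14.9, 12.8 and 12.1 CPM in the MIR libraries, against 9.54, 7.80, 4.96, 5.16 and 5.48 CPM in the control libraries (log2 fold change 1.08 ± 0.17). Its reads may be shared with its relatives Tmem181a and Tmem181b-ps, whose log2 fold changes were −0.20 and 0.56, neither called.

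Snhg11 (chr2:158375638-158386145, plus strand), a neuronal host gene of small nucleolar RNAs, had 1780.4, 1353, 1692, 1504 and 1349 CPM in the MIR libraries, against 934, 1133, 1007, 972 and 937 CPM in the control libraries and a log2 fold change of 0.62 ± 0.10. A list of 12 long noncoding RNAs retained in the nucleus was put together after this value had been seen and supports nothing by itself. In it 11 of 12 had a positive log2 fold change, 9 an unadjusted p under 0.05 on the higher side, 1 was called (Snhg11), and the median was 0.50. Rian, from the imprinted Dlk1-Dio3 region, had 405, 371, 381, 368 and 326 CPM in the MIR libraries, against 229, 276, 254, 293 and 292 CPM in the control libraries (log2 fold change 0.46 ± 0.09, adjusted p = 0.0686). Ftx, transcribed beside Xist, had 25.9 to 30.7 CPM in the MIR libraries and 12.8 to 23.8 CPM in the control libraries (log2 fold change 0.66 ± 0.14, adjusted p = 0.0852). Miat had a log2 fold change of 0.58, with control rapamycin 1 at 484 CPM and the other control libraries at or below 294 CPM. The summed level was 9045 to 11342 CPM in the MIR libraries and 6368 to 8585 CPM in the control libraries.

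On the lower side nothing was called, and the 10 genes with the smallest p there are given as values. Tsc22d3, the glucocorticoid-induced leucine zipper, had 72.9, 75.4, 83.8, 70.8 and 65.9 CPM in the MIR libraries, against 90.8, 95.4, 122, 120.5 and 109 CPM in the control libraries (log2 fold change −0.55 ± 0.10, adjusted p = 0.0661). Mfsd2a, the lipid transporter of the blood-brain barrier, had 24.7, 32.2, 28.8, 27.9 and 22.4 CPM in the MIR libraries, against 38.9, 37.7, 45.6, 54.8 and 38.7 CPM in the control libraries (log2 fold change −0.67 ± 0.13, adjusted p = 0.0686). In these and the other 8 genes all MIR libraries stood below all control libraries, as in 1.67% of all genes tested. The genes were picked by p on these same libraries, so their separation adds no support. Htra1, a secreted serine protease, had 108 to 147 CPM in the MIR libraries and 161 to 204 CPM in the control libraries (log2 fold change −0.49 ± 0.09), and Pnpla2, the adipose triglyceride lipase, 16.5 to 22.0 CPM in the MIR libraries and 24.0 to 33.2 CPM in the control libraries (log2 fold change −0.56 ± 0.11). Gabbr2, a subunit of the GABA-B receptor, had 405 to 482 CPM in the MIR libraries and 523 to 659 CPM in the control libraries (log2 fold change −0.37 ± 0.08, adjusted p = 0.104). For Gsg1l, an AMPA receptor auxiliary subunit, the log2 fold change was −0.56, and for the chromatin and transcription factor genes Sap130, Zfp423 and Zfhx4 it was −0.81, −0.53 and −0.53. Mns1, a structural gene of motile cilia that overlaps Tex9 on the opposite strand, had −0.69. Without control rapamycin 1, Tsc22d3, Mfsd2a, Htra1, Mns1, Pnpla2, Sap130 and Zfhx4 were lower in MIR offspring, together with Twist1, Tekt4, Klf15 and Fzd2.

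Glucocorticoid-induced genes, a set that rises in brain within hours of a stress hormone surge, lay mostly on that side. Of 20 tested, none was called, 18 had a negative log2 fold change, 9 had an unadjusted p under 0.05 on the lower side and none on the higher side, and the median was −0.32. Map3k6 had 5.27, 5.24, 5.83, 2.73 and 3.86 CPM in the MIR libraries, against 7.59, 6.60, 12.7, 9.53 and 7.35 CPM in the control libraries (log2 fold change −0.93 ± 0.22, adjusted p = 0.11). Plin4, a lipid droplet coat protein, had 20.0 to 38.7 CPM in the MIR libraries and 33.4 to 60.1 CPM in the control libraries (log2 fold change −0.68 ± 0.21), and Nfkbia, the inhibitor of NF-kB, 15.1 to 22.0 CPM in the MIR libraries and 15.9 to 35.7 CPM in the control libraries (log2 fold change −0.57 ± 0.18). The list's level was −0.03, 0.06, 0.03, −0.25 and −0.35 in the MIR libraries, against −0.05, −0.04, 0.65, 0.40 and 0.13 in the control libraries. Control rapamycin 3 and 4 were high and MIR rapamycin 4 and 5 low, and the remaining 6 libraries lay between −0.05 and 0.13.

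Endothelial genes, the markers of the vessel wall, lay on the higher side with no call. Of 18 tested, 17 had a positive log2 fold change, 7 an unadjusted p under 0.05, all on the higher side, and the median was 0.22, with a marker sum of 511 to 725 CPM in the MIR libraries and 494 to 529 CPM in the control libraries. Tek, the angiopoietin receptor TIE2, had 16.2, 11.0, 14.4, 11.7 and 12.9 CPM in the MIR libraries, against 8.92, 9.18, 6.53, 8.55 and 8.97 CPM in the control libraries (log2 fold change 0.65 ± 0.13, adjusted p = 0.0852). Cldn5, the tight junction protein of the blood-brain barrier, had 24.7 to 37.3 CPM in the MIR libraries and 13.6 to 23.3 CPM in the control libraries (log2 fold change 0.58 ± 0.15, adjusted p = 0.134). In both genes all MIR libraries stood above all control libraries, as in 3 of the 18 in all, against 2.5% of all genes tested. The transporters Slco1c1 and Slco1a4 had log2 fold changes of 0.51 and 0.78. Mfsd2a, of the same cells, was among the genes of smallest p on the lower side, and mural cell markers (13 tested, none called) had a median of −0.15.

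In a list of vascular basement membrane and angiogenesis genes 17 of 22 tested had a positive log2 fold change, none was called, and 5 on the higher side and 2 on the lower side had an unadjusted p under 0.05, with a median of 0.16. Cd93, an endothelial receptor of sprouting vessels, had 14.3, 9.53, 14.8, 7.97 and 9.33 CPM in the MIR libraries, against 4.02, 7.11, 5.36, 5.20 and 4.61 CPM in the control libraries (log2 fold change 1.08 ± 0.20, adjusted p = 0.0661). Nos3, the endothelial nitric oxide synthase, had 12.1, 8.39, 10.8, 8.85 and 9.78 CPM in the MIR libraries, against 7.03, 6.23, 5.92, 7.11 and 6.10 CPM in the control libraries (log2 fold change 0.63 ± 0.12, adjusted p = 0.0782). The groups were separate in both genes, and in Sox17, an arterial transcription factor (log2 fold change 0.51). Of all genes tested, 2.5% had all MIR libraries above all control libraries. Col4a1, the collagen IV of the basement membrane, overlapped between the groups (42.4 to 65.2 CPM in the MIR libraries and 35.2 to 49.6 CPM in the control libraries, log2 fold change 0.39).

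Genes of the pathway that rapamycin blocks differed little between the groups. None of 30 mTOR pathway components was called, 12 had a positive and 18 a negative log2 fold change, 3 had an unadjusted p under 0.05 on the lower side, and the median was −0.08. Ddit4, the stress-induced inhibitor of mTOR complex 1, had 16.2 to 29.0 CPM in the MIR libraries and 16.6 to 44.8 CPM in the control libraries (log2 fold change −0.63 ± 0.23, adjusted p = 0.267), and Akt1, the kinase upstream of it, 131 to 145 CPM in the MIR libraries and 145 to 195 CPM in the control libraries (log2 fold change −0.21 ± 0.08). Cytosolic ribosomal protein genes had a median of −0.01 (34 tested) and nuclear genes of oxidative phosphorylation −0.06 (26 tested, 3 of them with an unadjusted p under 0.05 on the lower side), with no call. Of 23 genes of cholesterol and fatty acid synthesis, 22 had a negative log2 fold change, but the median was −0.13, 3 had an unadjusted p under 0.05 and none was called.

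Synaptic and channel genes had small median differences and no call. The median was −0.07 for 29 glutamate receptors and transporters, −0.01 for 23 genes of inhibitory synapses, −0.04 for 30 potassium channels and −0.14 for 27 sodium and calcium channels. Without control rapamycin 1 the medians were −0.04, −0.08, −0.04 and −0.08 in the same order. An unadjusted p under 0.05 on the lower side was seen in 5 sodium and calcium channels (18.5%), in 4 potassium channels (13.3%), in 3 genes of inhibitory synapses (13%) and in 2 glutamate genes (6.9%), against 5.91% of all genes tested. On the higher side it was seen in 2 potassium channels and in no gene of the other 3 lists. Of the 27 sodium and calcium channels, 21 had a negative log2 fold change. The level of that list was 0.19 in control rapamycin 1 and −0.01 to 0.05 in the other control libraries. In the MIR libraries it was −0.12 to 0.02. In a list of 28 autism-associated synaptic and chromatin genes the median was −0.04 and 4 had an unadjusted p under 0.05, all on the lower side. Shank3, a scaffold of excitatory synapses, had 274 to 347 CPM in the MIR libraries and 323 to 404 CPM in the control libraries (log2 fold change −0.26 ± 0.08, adjusted p = 0.2). Of 15 interneuron markers, Lhx6 and Slc32a1, the vesicular GABA transporter, had all MIR libraries below all control libraries with log2 fold changes of −0.24 and −0.25, Sp8 had all above (0.65), and the median was 0.01. Over all genes tested, all MIR libraries stood below in 1.67% and above in 2.5%. Astrocyte markers had a median of −0.06 and none of 14 was called.

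The study's text and supplement name genes for rapamycin or MIR, which were chosen on these samples and are no independent evidence. Iqgap3 and Csmd3, called and described above, are among them. Tek, also among them, had a log2 fold change of 0.65 ± 0.13 with all MIR libraries above all control libraries and was not called, and neither were the following 4. Cdkn1a, the cell cycle inhibitor p21, had 28.5, 37.8, 25.0, 17.4 and 19.5 CPM in the MIR libraries, against 21.1, 34.4, 49.1, 43.8 and 27.6 CPM in the control libraries (log2 fold change −0.46 ± 0.24, adjusted p = 0.413). The groups overlapped widely. Plaur, the urokinase receptor, had a log2 fold change of −0.45 ± 0.28 and Hif3a, a hypoxia-inducible factor subunit, −0.32 ± 0.18. Tekt4, of sperm and ciliary microtubules, had 0.933 to 2.27 CPM in the MIR libraries and 1.90 to 6.40 CPM in the control libraries (log2 fold change −1.32 ± 0.32, adjusted p = 0.115).

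Markers of other tissue lay mostly on the lower side in the striatum, red cell and ependyma lists, and their part in the called genes was not tested. Of 14 striatal genes, 13 had a negative log2 fold change and the median was −0.48, but −0.04 without control rapamycin 4. Pde10a, a phosphodiesterase of striatal neurons, stood at 119 CPM in that library, with 55.9 to 65.6 CPM in the MIR libraries and 58.2 to 119 CPM in the control libraries. All 5 red cell genes tested had a negative log2 fold change, with a median of −1.07, none called. Hba-a1, the alpha globin, had 2.66, 14.4, 4.40, 9.64 and 4.14 CPM in the MIR libraries, against 25.2, 9.41, 12.0, 19.4 and 21.1 CPM in the control libraries (log2 fold change −1.30 ± 0.40, adjusted p = 0.193). MIR rapamycin 2 and 4 lay within the control range of this gene and the other 3 below it. Of 4 ependymal and cilia genes tested none was called, 3 had a negative log2 fold change, and the list level was −0.33 to −0.08 in the MIR libraries and 0.08 to 0.46 in the control libraries, without overlap. Other regional lists were mixed, with no call. Medians were 0.02 for hippocampus (9 tested), 0.05 for thalamus (10), −0.03 for cerebellum (8), 0.01 for choroid plexus (6) and 0.20 for hypothalamus (4). An unadjusted p under 0.05 on the higher side was seen in 1 hippocampal, 2 thalamic and 1 cerebellar gene. On the lower side it was seen in 1 hippocampal and 1 thalamic gene.

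MIR and control offspring were also compared under vehicle, in 10 other libraries, so that the values can be set beside those under rapamycin. In a quasi-likelihood fit of all 20 libraries, each of the 4 groups having its own mean, no gene of 17313 was called for a difference of the MIR effect between rapamycin and vehicle (0%). The smallest adjusted p was 0.318, 1061 genes had an unadjusted p under 0.05 with a larger and 1139 with a smaller value under rapamycin, and DESeq2 called 3 and 60. Of the vehicle libraries, control vehicle 1 held the striatal Pde10a at 1124 CPM, control vehicle 2 the cerebellar Cbln1 at 443 CPM and control vehicle 3 the choroid plexus gene Ttr at 1141 CPM, against at most 96.2, 27.7 and 12.8 CPM of these genes in the other 9 vehicle libraries, so values without those 3 are given where they move. Without them the control vehicle group rests on control vehicle 4 and 5 alone. No difference was called there either, and in the 20-library fit none of the 13 genes was called under rapamycin.

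The dividing-cell genes had positive values under both treatments. The MIR effect on Top2a was 4.29 ± 0.78 under rapamycin and 3.82 ± 0.74 under vehicle (log2, SE), a difference of 0.47 ± 1.05. For Top2a the vehicle libraries had 15.0, 0.293, 13.5, 15.5 and 6.83 CPM in the MIR vehicle libraries, against 1.00, 0.0873, 0.858, 0.641 and 0.990 CPM in the control vehicle libraries. MIR vehicle 2 lay among the controls there and the other 4 MIR vehicle libraries far above them. The MIR effect on Mki67 was 3.59 ± 0.67 under rapamycin and 3.54 ± 0.66 under vehicle, and the median of the mitosis list was 1.69 under rapamycin and 1.91 under vehicle (40 genes tested in this fit). The standard error of the Top2a difference leaves room for a sizeable one in either direction. Tmem181c-ps gave 1.07 ± 0.42 and 1.08 ± 0.42, Cd93 1.08 ± 0.22 and 1.38 ± 0.22, and Nos3 0.62 ± 0.14 and 0.83 ± 0.14, under rapamycin and under vehicle in each case. By this edgeR fit Top2a and Mki67 (adjusted p = 0.0479 each) and Cd93 and Nos3 (0.0457 each) met the call rule under vehicle. None of these genes met it under rapamycin in the same fit. A call under only vehicle is no test of a difference, and no difference was called. The vehicle value of Tmem181c-ps was 1.93 without control vehicle 1, 2 and 3.

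Interferon genes differed in value between the treatments, without a call, and less so without control vehicle 1, 2 and 3. Irf7 had an MIR effect of 2.23 ± 0.70 under rapamycin and 0.22 ± 0.62 under vehicle, a difference of 2.01 ± 0.94 (unadjusted p = 0.0443, adjusted p = 0.385 by the edgeR fit). The vehicle libraries of Irf7 had 7.41, 1.66, 5.40, 6.68 and 6.11 CPM in the MIR vehicle libraries, against 1.79, 17.5, 2.15, 0.824 and 1.03 CPM in the control vehicle libraries. Control vehicle 2 was the highest of them, and without control vehicle 1, 2 and 3 the MIR effect on Irf7 under vehicle was 2.54. The Irf7 difference was then −0.30 (unadjusted p = 0.641 by the edgeR fit). Leaving out the same libraries took the difference from 2.00 to 0.63 for Isg15, from 2.69 to 0.76 for Ifit1 and from 2.89 to 0.94 for Oasl2. The median of the interferon list was 1.06 under rapamycin and −0.38 under vehicle, or 0.62 under vehicle without those 3 libraries.

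Csmd3 had opposite signs, 0.52 ± 0.17 under rapamycin and −0.37 ± 0.17 under vehicle, a difference of 0.89 ± 0.24 (unadjusted p = 0.00142, adjusted p = 0.318 by the edgeR fit). Its vehicle libraries had 24.8, 27.0, 32.1, 40.4 and 25.9 CPM in the MIR vehicle libraries, against 60.6, 24.9, 32.1, 37.4 and 39.7 CPM in the control vehicle libraries. The difference was 0.89 without control vehicle 1, 2 and 3 as well, and was not called there. On the lower side Map3k6 had −0.94 ± 0.23 under rapamycin and 0.01 ± 0.24 under vehicle, and Mfsd2a −0.68 ± 0.17 and −0.03 ± 0.18 in the same order. Microglial markers had medians of 0.39 under rapamycin and 0.44 under vehicle, and endothelial markers 0.21 and 0.44. Immediate early genes, which neuronal activity switches on within minutes, had a median of −0.09 under rapamycin and 0.92 under vehicle, the second being 0.27 without control vehicle 1, 2 and 3.

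**Figure D4:**
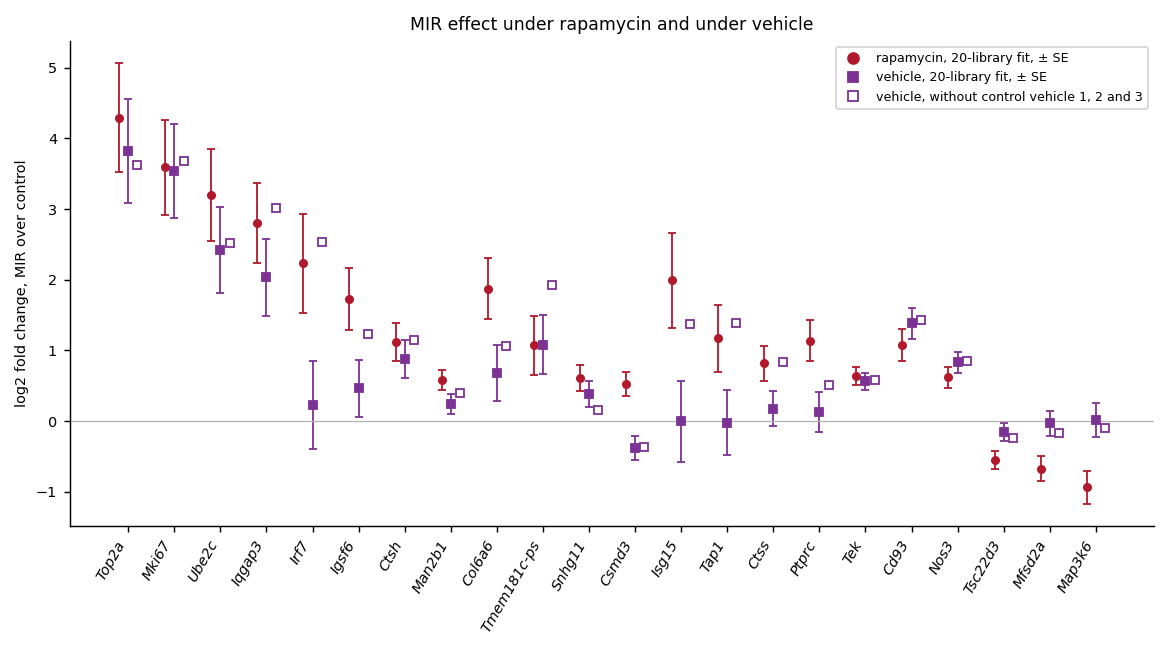
Log2 fold change of MIR over control offspring under rapamycin (circles) and under vehicle (filled squares) with standard errors, from a fit of all 20 libraries, for 22 genes, with open squares for vehicle without control vehicle 1, 2 and 3. Top2a and Mki67 lie between 3.54 and 4.29 under both treatments, and Csmd3 has opposite signs.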

How the data were processed

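Poly(A) RNA was prepared by the authors with a stranded kit from sensory-motor cortex and sequenced as short paired ends. Per the submitters' processing notes and the methods, reads were aligned with STAR 2.4.0 to mm10 and counted with HTSeq 0.6.1. The deposited table holds raw counts per Ensembl gene, whole numbers with no normalization, and 0 value columns were left unused. It has no column of the authors' own comparisons. Coordinates came from GENCODE on GRCm38 and promoters from RefSeq on GRCm38.p6.

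The 10 rapamycin libraries were fitted alone in R 4.3.3 with edgeR 4.0.16 (filterByExpr with minimum count 10 and total 15, TMM scaling, quasi-likelihood test, Benjamini-Hochberg adjustment over 16469 genes). The thresholds for a call are given with the results. The common biological coefficient of variation was 15.6%. List levels used log2 CPM with a prior count of 2. Depth was 18.1 to 24.5 M counts a library, so genes near 1 CPM rest on about 20 counts. No 2 libraries of a group agreed within sampling noise (the smallest chi-square was 5.50 per degree of freedom). Named are called genes that average 1 CPM or more and have an ordinary symbol (12 a direction by size), the 10 of smallest p in a direction with fewer than 5 calls, and up to 4 of smallest p, with every called gene, from each list described. Ncapg, Twist1, Tekt4, Klf15, Fzd2, Phrf1, Cd3e, Cd3g and the Tmem181 relatives were named after their values were seen. Of the genes the rule selects, 1 called gene and a few members of the lists are not reported here. The gene lists, the groups compared and the rules were chosen with earlier results of these data known. The scripts' fit was tested on simulated data. Alternatives were DESeq2 1.42.0, limma 3.58.1 voom, a likelihood ratio test, other filters, scaling and thresholds, a replicate block and each library left out. Leaving out control rapamycin 1 and 4 together, and the list of nuclear noncoding RNAs, were added after seeing the data.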

Additional observations from a re-analysis of the deposited data

Results flagged for a closer look

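Of 216 groups of 5 libraries checked (the CPM of named genes, list levels and library measures), 21 had 1 library far from the other 4, where chance gives about 1 group in 20. Control rapamycin 1 accounted for 10. It stood apart on the first principal component (65.8) and in the rank correlation of its deviations with GC content (0.68), in the list levels of interferon-stimulated genes (0.0475 log2 units against the median library), MHC class I (0.60) and ribosomal proteins (0.17), and in Psmb8 (2.96 CPM), Miat (484 CPM), Akt1 (195 CPM), Cacnb3 (339.9 CPM) and Slc32a1 (123 CPM).

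Control rapamycin 4 accounted for 6, with a striatum level of 1.54, Pde10a at 119 CPM, Rxrg at 6.64 CPM, Mns1 at 7.76 CPM, Zfhx4 at 27.5 CPM and Ctss at 65.5 CPM. Among MIR libraries, 3 stood apart: MIR rapamycin 1 in Cldn5 (37.3 CPM), MIR rapamycin 3 in Lyz2 (8.22 CPM) and MIR rapamycin 4 in Pde10a (65.6 CPM). Control rapamycin 3 was low in Tek (6.53 CPM) and control rapamycin 2 was apart in the nuclear noncoding RNA level (0.0012).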

How the results depend on the processing

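None of 84 named genes changed sign in any of the 19 alternatives they were followed through, but the number called changed widely. Against 13 higher and 0 lower, DESeq2 called 208 and 29, limma voom with quality weights 135 and 22, a likelihood ratio test in edgeR 240 and 34, and no filter on low counts 90 and 5. At an adjusted p under 0.10 with a log2 fold change over 1 the counts were 36 and 0, in a fit of all 20 libraries 0 and 0, and without control rapamycin 1 and 4 together, an alternative added after seeing the data, 28 and 3. RLE size factors gave 14 higher, robust estimation 14, at least 1 CPM in 5 libraries 11 and no fold limit 13, with none lower. Leaving out 1 library gave 0 to 141 higher and 0 to 11 lower. With the replicate number as a block (replicate block), 7 genes were called higher and 0 lower; same-numbered libraries did not deviate together (correlations 0.10, −0.17, −0.04, −0.08 and 0.03), so the numbers were not treated as pairs, and only replicate 1 correlated best with its own number. For the difference between rapamycin and vehicle, DESeq2 called 3 genes larger and 60 smaller under rapamycin, the replicate block and the fit without control vehicle 1, 2 and 3 none, and leaving out 1 library 0 larger and 0 to 1 smaller (Zfpm1, without control vehicle 5). Of 20 list medians, the signs of the ribosomal (6 alternatives), border macrophage (1) and autism-associated (1) lists differed, all near 0 in those fits. The cause of these differences was not tested.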

Other observations

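Marker lists outside the comparisons above held no called gene. Markers of oligodendrocytes and myelin had a median log2 fold change of 0.13 (16 tested), with the paranodal and myelin gene Opalin at 0.57 and the myelin regulator Myrf at −0.39. Meningeal fibroblast markers had a median of −0.08 (13 tested), clock genes −0.07 (18 tested) and hypoxia genes 0.02 (19 tested), of which Ndrg1 had −0.44. Ttr, the choroid plexus transcript, stood at 0.194 to 6.34 CPM in the MIR libraries and 0 to 1.11 CPM in the control libraries.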
